A study of Schizosaccharomyces pombe with 36 samples.

Results

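The response of fission yeast (Schizosaccharomyces pombe) to loss of Tti2 was measured in 12 of the 36 RNA-seq libraries of the series, as far as it went beyond the response of a control strain to the same inducer. The tti2-CKO strain (genotype cre-ER lox-tti2-lox) carried tti2 between lox sites together with CreER, a recombinase that acts once β-estradiol is added. It was sampled after 18 h with 1 µM β-estradiol or with the solvent DMSO. The control strain, creER, carried the recombinase alone and was sampled after 21 h with β-estradiol or DMSO. Each of the 4 groups had 3 independent cultures in rich medium, and all 12 libraries came from cells with the recombinase. Because strain and length of treatment changed together (18 h against 21 h), their parts in a difference cannot be told apart in what follows. tti2 is an essential gene, so its loss was induced and could not be studied in a stable deletion.

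Tti2 is a subunit of TTT, a cochaperone that works with Hsp90 in the maturation of the phosphatidylinositol 3-kinase-related kinases (PIKKs). In fission yeast this family holds the TOR kinases Tor1 and Tor2, which tie growth and sexual differentiation to nutrients, the checkpoint kinases Rad3 and Tel1, and the pseudokinases Tra1 and Tra2, which belong to the coactivators SAGA and NuA4. Tor2 activity is known to favour ribosomal protein gene expression, and nitrogen-starvation genes such as isp5 are known to come on when it is lost.

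The measure for each gene was the interaction term of a model over the 12 libraries, that is, the log2 fold change between β-estradiol and DMSO in tti2-CKO minus the same fold change in creER, tested with the edgeR quasi-likelihood method. A gene was called at a Benjamini-Hochberg adjusted p of at most 0.01 and an interaction of at least 1.5-fold. Values per library are CPM, counts relative to the TMM-scaled size of the library, and errors of log2 values are standard errors. The libraries held 5016301 to 9724398 counts. Each creER library with β-estradiol was deeper than each creER library with DMSO. In bulk RNA, a change in few cells and a smaller change in all cells cannot be told apart.

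Of 4945 genes tested, 120 (2.43%) had a called interaction, 65 (1.31%) with a higher and 55 (1.11%) with a lower response in tti2-CKO than in creER. The median interaction over all genes was 0.01. In 111 of the 120 genes the tti2-CKO response ran in the direction of the interaction and was larger than the creER response. In 98 of the 120 creER itself changed by less than 1.5-fold. Both counts are descriptions that depend on the selection, because the genes were chosen by the difference between these responses. The tti2-CKO response taken alone was called for 552 genes (11.2%; 5.54% higher and 5.62% lower) and the creER response for 95 genes (1.92%; 1.58% higher and 0.344% lower). Of the 120 genes, 106 had a called tti2-CKO response and 12 a called creER response, counts that share libraries with the interaction. With each library left out in turn, 53 of the 120 genes (28 higher, 25 lower) were called in each of the 12 fits. The number called fell to 77, 60, 60, 62 and 66 without β-estradiol-treated tti2-CKO replicate 1, β-estradiol-treated tti2-CKO replicate 2, DMSO-treated tti2-CKO replicate 1, β-estradiol-treated creER replicate 2 and β-estradiol-treated creER replicate 3.

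**Figure D1:**
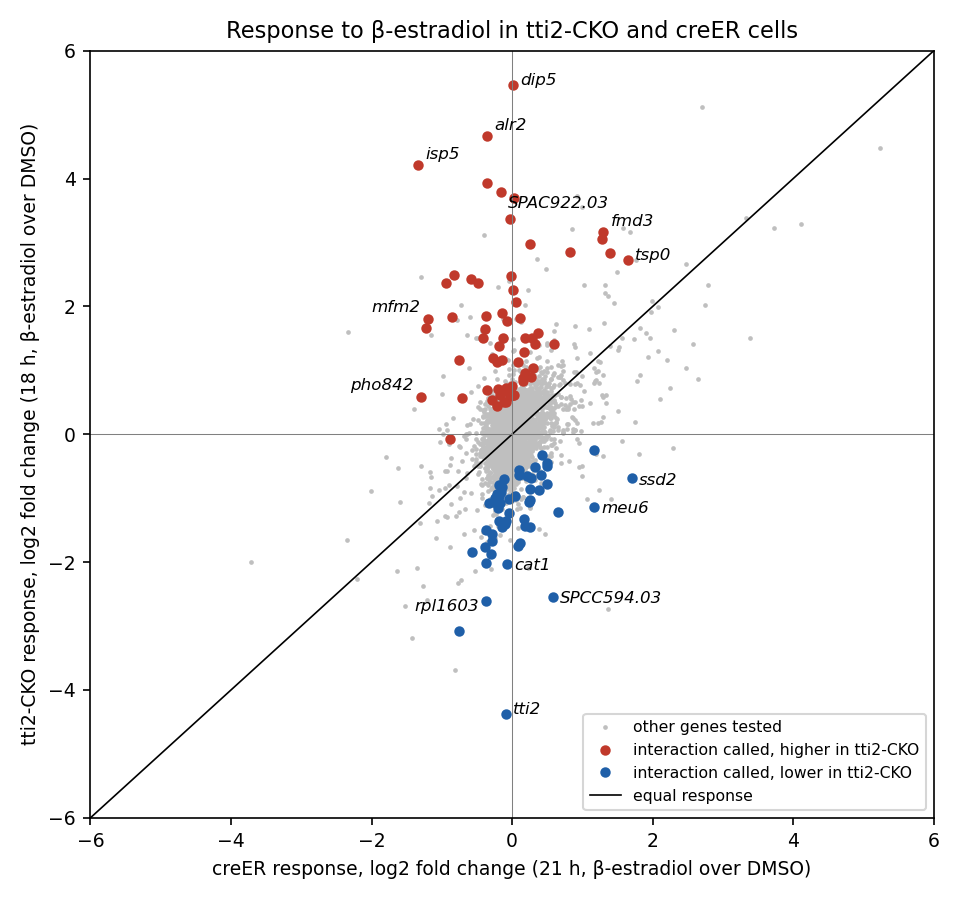
Log2 fold change between β-estradiol and DMSO in tti2-CKO at 18 h (vertical axis) against creER at 21 h (horizontal axis), 1 point per gene tested, with the 120 called interactions in red (65 higher) and blue (55 lower) and a line of equal response. Most red and blue points lie close to the vertical line at 0, where the creER change is 0, and isp5, dip5 and alr2 lie farthest above the line of equal response.

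The creER replicate 1 cultures stood apart from the other creER cultures. Of 4649 genes that averaged 10 CPM or more, 39 were more than 2-fold above both other libraries of their group in creER DMSO replicate 1, and 23 in creER β-estradiol replicate 1. The other 10 libraries had between 0 and 10 such genes. The oligopeptide transporter gene isp4 had 324 CPM in creER DMSO replicate 1 but 37.7 and 45.3 CPM in replicates 2 and 3. Between the DMSO cultures of tti2-CKO and creER, 3 genes (0.0607%) differed by the same rule, zym1 being higher in tti2-CKO (0.0202%) and ftm4 and ubi4 lower (0.0404%), and 211 did without creER DMSO replicate 1. Of those 211 genes, 11 were among the 120. Without both creER replicate 1 cultures, an alternative chosen after the data were seen, 140 interactions were called, 93 of them among the 120.

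The targeted gene checked the labels. tti2 had 4, 5 and 2 counts in β-estradiol-treated tti2-CKO cultures, against 75, 67 and 92 counts with DMSO. In creER it had 97, 234 and 173 counts with β-estradiol and 94, 178 and 107 counts with DMSO. The induced cultures lay far below all 9 others. The interaction was -4.29 ± 0.52 (adjusted p = 0.000447, edgeR). A difference of -0.82 between the DMSO cultures of tti2-CKO and creER did not pass (adjusted p = 0.132).

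None of the 15 genes of the PIKK family or of TTT and its partners (apart from tti2) was called. The medians were 0.12 over the 6 PIKK genes and -0.09 over the 9 others. tra1 was at 112, 138 and 125 CPM in induced tti2-CKO cells, against 98.6, 108 and 103 CPM with DMSO (interaction 0.15 ± 0.13, adjusted p = 0.507, edgeR). For tra2 the interaction was 0.12 ± 0.10, and for tor2 it was 0.07 ± 0.12. Protein levels were not measured in these libraries. Medians over the SAGA and NuA4 subunit genes were both 0.16 (18 and 13 genes), with none called.

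The 2 largest positive interactions were those of the amino-acid transporter genes isp5 and dip5. isp5, a nitrogen-starvation gene for an amino-acid transporter, had 1530, 1490 and 999 CPM in induced tti2-CKO cells, against 71, 91.3 and 55.5 CPM with DMSO. In creER it had 20.5, 7.58 and 8.03 CPM with β-estradiol and 62.5, 12.7 and 14.4 CPM with DMSO. Its interaction was 5.55 ± 0.75 (adjusted p = 0.000951, edgeR), and 5 without both creER replicate 1 cultures. The induced tti2-CKO libraries were the only ones above 100 CPM, and of the creER cultures replicate 1 was the highest under both treatments.

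dip5, for an amino-acid transporter named after the dicarboxylic amino acid permease of budding yeast, had 229, 339 and 357 CPM in induced tti2-CKO cells, against 5.23, 8.71 and 7.10 CPM with DMSO. Both creER groups lay close to the DMSO-treated tti2-CKO cultures, at 7.28, 7.68 and 6.62 CPM with β-estradiol and 5.17, 8.93 and 7.14 CPM with DMSO. The interaction was 5.43 ± 0.35 (adjusted p = 1.6e-06, edgeR). Next to it on chromosome III lies SPCC777.03c, annotated as a cysteine desulfurase family protein, at 386, 504 and 557 CPM in induced tti2-CKO cells, against 36.7, 35.9 and 38.7 CPM with DMSO (interaction 3.67 ± 0.17, adjusted p = 4.55e-08). The annotated transcripts of dip5 and SPCC777.03c overlap on opposite strands, and the counting is stated to be strand-specific. The creER levels of SPCC777.03c, 34.4, 35.8 and 33.4 CPM with β-estradiol and 32.6, 33.8 and 35.2 CPM with DMSO, were flat.

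**Figure D2:**
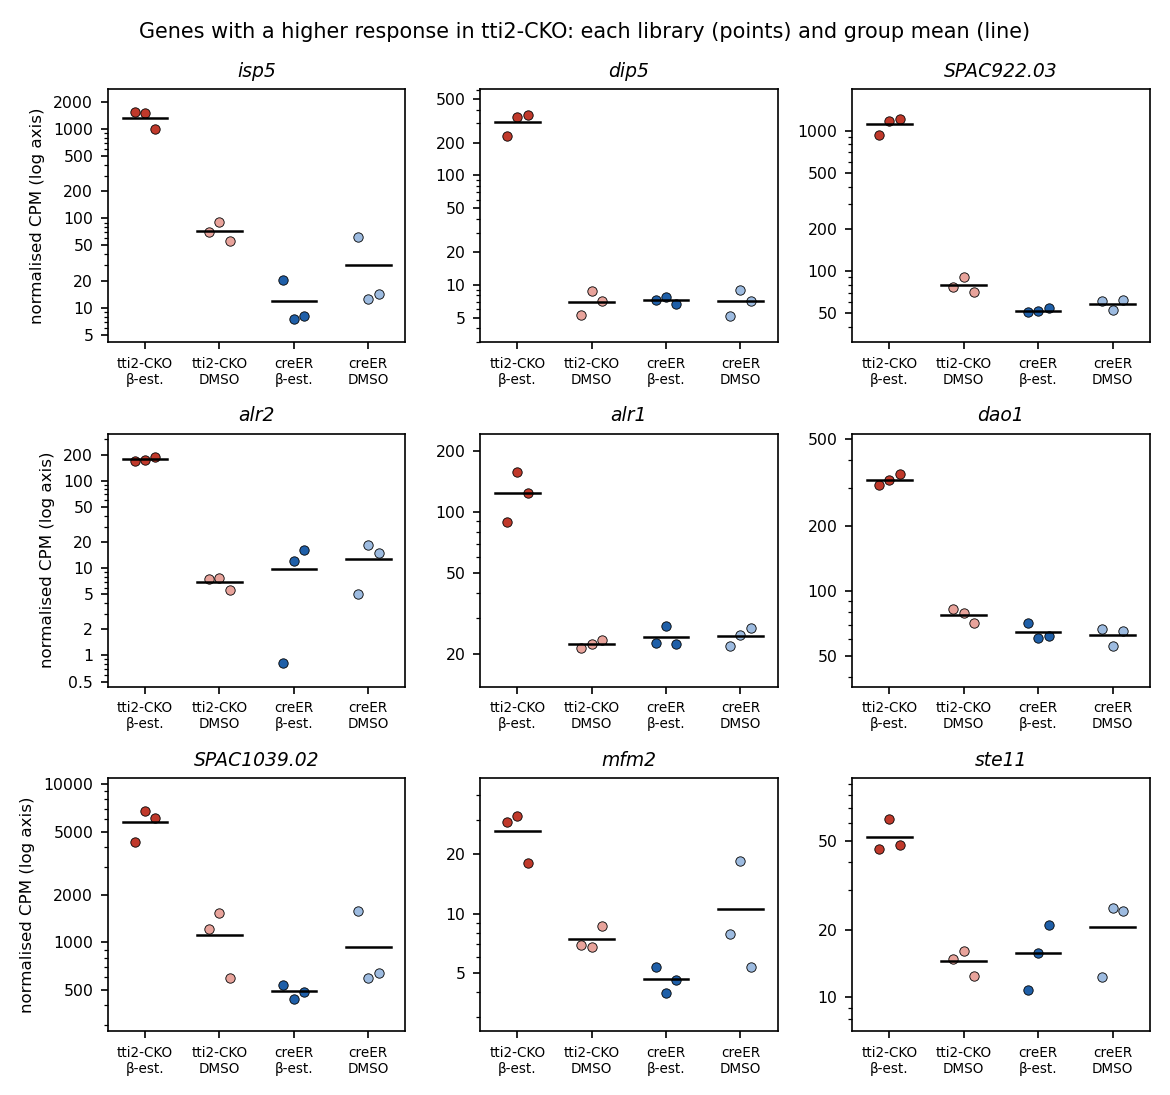
CPM of 9 genes with a higher response in tti2-CKO in each library (points, 3 per group, on a log axis) and the group mean (line). In each panel the 3 induced tti2-CKO libraries lie above the 3 DMSO-treated tti2-CKO libraries, and no creER response among them was called.

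A run of neighbouring genes on chromosome I was higher together. Among the 12 tested genes in order from SPAC1039.01 to SPAC922.03, 8 were called, all higher, and the other 4 (SPAC1039.03, SPAC1039.04, klf1 and gto1) had interactions of 0.32, -0.12, 0.33 and -0.09. The 8 called genes lie on both strands and include isp5, the permease gene SPAC1039.01, the D-serine ammonia-lyase gene SPAC1039.06, the aminotransferase gene SPAC1039.07c, mmf2, and SPAC922.03, annotated as a 1-aminocyclopropane-1-carboxylate deaminase. SPAC922.03 had the smallest adjusted p of all interactions: it was at 933, 1180 and 1210 CPM in induced tti2-CKO cells, against 77.4, 90.5 and 71.3 CPM with DMSO. Its creER cultures held 51.0, 51.8 and 54.0 CPM with β-estradiol and 60.7, 52.9 and 61.8 CPM with DMSO (interaction 3.96 ± 0.17, adjusted p = 3.7e-08, edgeR). No library of another group came near the induced tti2-CKO cultures.

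SPAC1039.02, annotated as a phosphoprotein phosphatase, was the most abundant gene of the run, at 4320, 6800 and 6060 CPM in induced tti2-CKO cells, against 1210, 1540 and 597 CPM with DMSO. In creER it was at 540, 441 and 485 CPM with β-estradiol and 1580, 591 and 637 CPM with DMSO. Its interaction, 3.30 ± 0.54, included a creER change of -0.94 that did not pass (adjusted p = 0.225). The high creER DMSO value belonged to replicate 1, and without both creER replicate 1 cultures the interaction was 2.76 and still called. Single-library exclusion kept the call for 5 of the 8 genes in each fit. SPAC1039.01, SPAC1039.02 and SPAC1039.08 kept it in 5, 8 and 6 of 12 fits, with adjusted p up to 0.0207, 0.0121 and 0.0178.

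**Figure D3:**
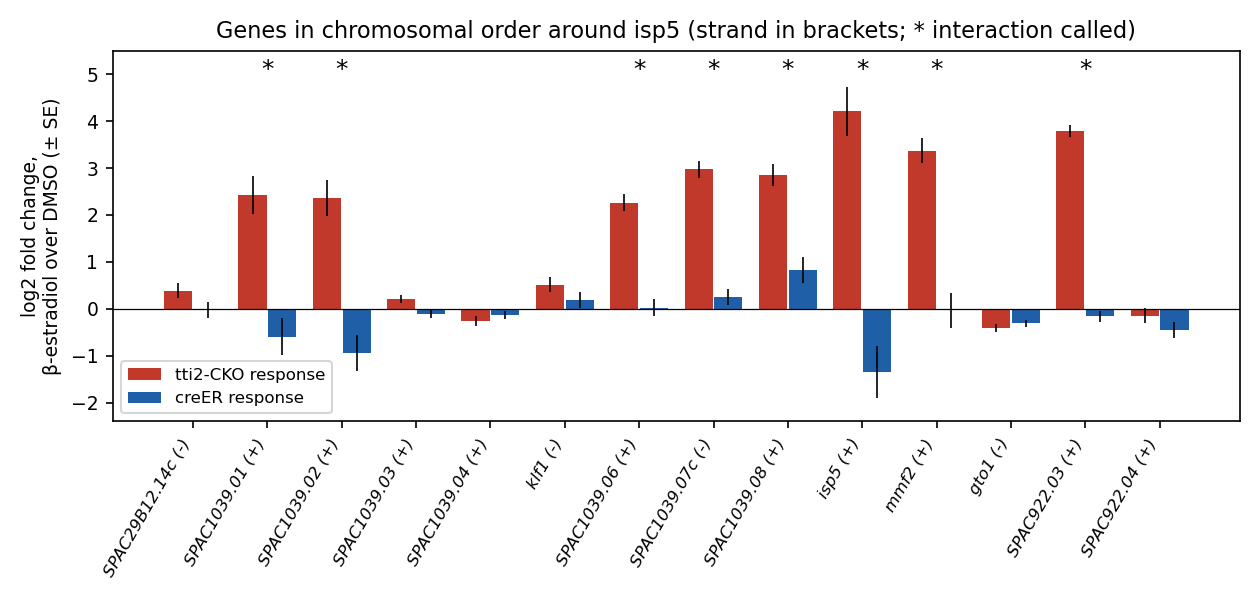
Log2 fold change between β-estradiol and DMSO (± SE) of 14 genes in chromosomal order from SPAC29B12.14c to SPAC922.04, with tti2-CKO in red and creER in blue. The 8 genes with an asterisk had a called interaction and stand above 2 in tti2-CKO, while the 4 uncalled genes between them lie between -0.41 and 0.51.

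Chromosomal neighbours among the called genes were not limited to this run. Of the 120 genes, 23 (19.2%) had a called gene as direct neighbour, compared with 225 (4.55%) of all genes tested. In 21 of the 23 cases at least 1 such neighbour was called in the same direction. Pairs of higher genes were dip5 with SPCC777.03c, SPBC359.01 with alr2, agp3 with dpe2, SPAC11D3.18c with dgc1, cpy1 with SPAC19G12.09, and SPCC61.05 with cbl1. The pair of alr1 and gst2 on chromosome III moved apart, with interactions of 2.49 and -1.81.

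Sequences upstream of 3 higher genes with a GATAAG motif, the core bound by GATA factors such as the nitrogen regulator Gaf1, are shown because these genes are strongly raised and 2 of them, isp5 and mmf2, are neighbours. They were read 5′ to 3′ on the coding strand from the ASM294v3 assembly, as the 300 bases before the annotated start of isp5 (chrI:5466457-5466756, + strand), mmf2 (chrI:5470564-5470863, + strand) and dao1 (chrIII:1738273-1738572, - strand). Capitals mark GATAAG or its reverse complement CTTATC.
isp5: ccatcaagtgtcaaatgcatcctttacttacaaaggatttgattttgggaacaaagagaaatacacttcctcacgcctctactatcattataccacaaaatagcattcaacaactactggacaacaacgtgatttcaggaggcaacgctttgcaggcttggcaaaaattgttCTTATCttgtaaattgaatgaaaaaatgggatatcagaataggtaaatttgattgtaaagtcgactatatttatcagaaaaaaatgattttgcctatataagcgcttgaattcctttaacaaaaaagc
mmf2: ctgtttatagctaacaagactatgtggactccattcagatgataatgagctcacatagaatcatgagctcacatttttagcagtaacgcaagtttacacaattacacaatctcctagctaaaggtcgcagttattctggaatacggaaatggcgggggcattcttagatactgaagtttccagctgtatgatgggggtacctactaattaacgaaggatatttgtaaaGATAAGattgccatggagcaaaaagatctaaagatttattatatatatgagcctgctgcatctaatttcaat
dao1: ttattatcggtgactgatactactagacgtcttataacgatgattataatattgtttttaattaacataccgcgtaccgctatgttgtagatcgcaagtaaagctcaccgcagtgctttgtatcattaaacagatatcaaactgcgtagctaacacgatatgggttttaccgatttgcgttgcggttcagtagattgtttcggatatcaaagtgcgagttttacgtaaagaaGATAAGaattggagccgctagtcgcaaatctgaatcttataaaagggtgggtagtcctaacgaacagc
The first base of the motif lies 128 bases before the annotated start of isp5, 72 before that of mmf2 and 68 before that of dao1.

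Over all windows of 300 bases, GATAAG on either strand was found upstream of 13 of the 65 higher genes (20%) and 10 of the 55 lower genes (18.2%), compared with 587 of 4944 tested genes (11.9%). The Atf1 motif TGACGT was found at 4 higher (6.2%) and 9 lower genes (16.4%), compared with 6.0% of tested genes. The Ste11 core AACAAAG occurred at 6.2% of higher and 12.7% of lower genes (10.7% of all), and both mfm2 and ste11 itself had 2 copies. CCAAT, the Php motif, was found at 41.5% of higher and 40% of lower genes, compared with 40.9% of all. No called gene held ACGCGT, the MBF motif, which 2.9% of tested genes hold. These matches describe letters in a window and not bound sites.

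Some enzymes that act on D-amino acids or the amino group of related substrates were seen as a group only after the values were known. Product names were searched for alanine racemase, D-amino, D-serine, D-glutamate or aminocyclopropane. The 6 tested genes that matched, alr1, alr2, dao1, dgc1, SPAC1039.06 and SPAC922.03, were all called and all higher (1.31% of all genes tested were called higher). Since the words were chosen from called genes, the count is a description of this search. Other enzymes that act on amino groups, such as aminotransferases, were not part of it. alr2, for an alanine racemase, which interconverts L- and D-alanine, had 169, 172 and 190 CPM in induced tti2-CKO cells, against 7.55, 7.68 and 5.65 CPM with DMSO. Its creER values were 0.809, 12.2 and 16.3 CPM with β-estradiol and 5.01, 18.2 and 15.1 CPM with DMSO, so replicate 1 was low under both treatments and the interaction of 5.01 had an SE of 0.78 (adjusted p = 0.0024, edgeR). The other racemase gene, alr1, had 89.0, 158 and 125 CPM in induced tti2-CKO cells, against 21.3, 22.4 and 23.3 CPM with DMSO, an interaction of 2.49 ± 0.26. In creER alr1 ranged over 22.3 to 27.5 CPM with β-estradiol and 21.8 to 26.8 CPM with DMSO.

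dao1 encodes D-amino acid oxidase, which removes the amino group of D-amino acids. It was at 309, 324 and 347 CPM in induced tti2-CKO cells, against 82.9, 79.5 and 71 CPM with DMSO (interaction 2.02 ± 0.13, adjusted p = 1.64e-06, edgeR). In creER it was at 70.8, 60.9 and 62.3 CPM with β-estradiol and 66.7, 55.6 and 65.5 CPM with DMSO. The induced tti2-CKO cultures were thus the only ones above 100 CPM. dgc1, for a D-glutamate cyclase, had an interaction of 2.04 ± 0.33 and lost its call without β-estradiol-treated tti2-CKO replicate 2 or DMSO-treated tti2-CKO replicate 1 (highest adjusted p = 0.0122), and the calls of the other 5 genes held in each single-library exclusion.

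The list of nitrogen-starvation genes and amino-acid permeases had 19 genes tested, of which isp5, dip5 and agp3 were called higher and cat1 lower (1.31% and 1.11% of all genes tested). DESeq2 called 7 of the 19 (275 over all genes), and edgeR 6 without both creER replicate 1 cultures (140 over all genes). Its median interaction was 0.84, compared with 0.01 over all genes tested, and 15 of its genes lay above 0. Over single-library exclusions the median ranged between 0.20 and 1.07, and without both creER replicate 1 cultures it was 0.60. Genes of the list with large values that did not pass were isp4 at 2.1 ± 0.92 (adjusted p = 0.173), isp7 at 1.76 ± 0.41 (adjusted p = 0.02) and put4 at 1.65 ± 0.86 (adjusted p = 0.251). In each of these creER replicate 1 was high under both treatments: put4 had 110 CPM in creER β-estradiol replicate 1 but 30.6 and 38.5 CPM in the other 2 cultures. The part of these cultures in the interaction was not tested beyond leaving them out.

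Not all amino-acid transporter genes rose. Of 22 tested genes annotated as amino-acid permeases or transporters, 5 were called higher and 2 lower (1.31% and 1.11% of all genes tested). This set was chosen after the values were seen. SPBC359.01, a permease gene next to alr2, had 192, 129 and 132 CPM in induced tti2-CKO cells, against 56.9, 44.2 and 41.0 CPM with DMSO, whereas creER fell to 14.6, 18.9 and 21.7 CPM with β-estradiol, against 48.9, 40.1 and 39.9 CPM with DMSO. Its interaction of 2.89 ± 0.27 (adjusted p = 4.93e-05, edgeR) therefore joined a rise of 1.67 in tti2-CKO with a fall of 1.22 in creER, both called. cat1, for the arginine and lysine transporter of the plasma membrane, fell to 25.9, 24.6 and 26.0 CPM in induced tti2-CKO cells, against 95.9, 85.7 and 130 CPM with DMSO (interaction -1.96 ± 0.26, adjusted p = 0.000824). Its creER cultures ranged over 107 to 140 CPM with β-estradiol and 101 to 160 CPM with DMSO, above every induced tti2-CKO culture.

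Other large positive interactions were in SPAC11D3.03c, an uncharacterized protein gene, at 4.28 ± 0.57, and SPAC27F1.05c, for an aminotransferase, at 3.32 ± 0.51. SPAC11D3.03c was at 455, 512 and 431 CPM in induced tti2-CKO cells, against 32.1, 40.3 and 19.6 CPM with DMSO. In creER it was at 14, 7.48 and 7.80 CPM with β-estradiol and 23.6, 6.42 and 6.98 CPM with DMSO. Its creER cultures thus lay mostly below the DMSO-treated tti2-CKO cultures, with replicate 1 the highest. thi7, annotated as a transporter, was at 737, 903 and 667 CPM in induced tti2-CKO cells, against 279, 223 and 237 CPM with DMSO (interaction 2.04 ± 0.17, adjusted p = 1.65e-05, edgeR).

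Some peptidase genes were also among the higher ones, again noticed after the values were seen. cpy1, for vacuolar carboxypeptidase Y, had 2960, 3150 and 3370 CPM in induced tti2-CKO cells, against 1290, 1310 and 1280 CPM with DMSO (interaction 1.11 ± 0.18, adjusted p = 0.00278, edgeR). Its creER cultures lay at 1310, 1150 and 1330 CPM with β-estradiol and 1070, 955 and 1330 CPM with DMSO, below each induced tti2-CKO culture. The dipeptidyl peptidase genes dpe1 and dpe2 (1.10 and 1.84), the serine protease gene psp3 (0.61) and the proteinase B inhibitor gene pbi2 (1.70) were called as well. Of these, dpe1, dpe2 and pbi2 kept the call in each of the 12 single-library exclusions, cpy1 in 10 (lost without DMSO-treated tti2-CKO replicate 1, adjusted p up to 0.0122, or β-estradiol-treated creER replicate 2) and psp3 in 5. Of 70 tested peptidase or protease genes, 4 were called higher and 1, cdb4, lower (1.31% and 1.11% of all genes tested).

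Among 26 tested genes of mating and meiotic entry, 2 were called higher (1.31% of all genes tested were) and none lower. DESeq2 called 6 of the 26 (275 over all genes), and edgeR 0 to 4 with single libraries left out (60 to 154 over all genes). ste11, for the transcription factor that starts sexual differentiation, had 45.9, 62.4 and 47.9 CPM in induced tti2-CKO cells, against 14.9, 16.1 and 12.5 CPM with DMSO. Its creER values overlapped between treatments, at 10.8, 15.7 and 21.0 CPM with β-estradiol and 12.3, 25.1 and 24.2 CPM with DMSO (interaction 2.22 ± 0.38, adjusted p = 0.00409, edgeR). mfm2, for a precursor of the M-factor pheromone, had 29.3, 31.5 and 18.1 CPM in induced tti2-CKO cells, against 6.97, 6.79 and 8.69 CPM with DMSO. In creER mfm2 had 5.39, 3.94 and 4.61 CPM with β-estradiol and 7.91, 18.5 and 5.35 CPM with DMSO. Its interaction of 3.01 ± 0.53 (adjusted p = 0.0049, edgeR) joined a rise of 1.81 in tti2-CKO with a creER change of -1.2 that did not pass (adjusted p = 0.132). The calls of ste11 and mfm2 held in 7 and 5 of 12 single-library exclusions, with adjusted p up to 0.0158 and 0.0178. The pheromone receptor gene mam2 stood at 2.51 (adjusted p = 0.0105, edgeR) and mei2, for the RNA-binding protein of meiotic entry, at 1.84 (adjusted p = 0.0324), both short of the threshold with edgeR, whereas DESeq2 called mei2 (adjusted p = 0.00155). The list median was 0.33, and 17 of its 26 genes lay above 0.

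Genes of mitochondrial respiration mostly had small positive terms. Of 30 tested genes 27 had a positive interaction, with a median of 0.54 (0.01 over all genes). Called higher were cox5, cox12 and atp3, for subunits of cytochrome c oxidase and ATP synthase (1.31% of all genes tested were called higher). cox12 had 217, 218 and 229 CPM in induced tti2-CKO cells, against 138, 144 and 140 CPM with DMSO, while creER ranged over 133 to 149 CPM with β-estradiol and 127 to 162 CPM with DMSO. Their calls were near the threshold (adjusted p between 0.00373 and 0.00659) and held in 3, 2 and 7 of 12 single-library exclusions for cox5, cox12 and atp3. The summed counts of the 30 genes made up 1.084% ± 0.014 of all counts in induced tti2-CKO cells, against 0.858% ± 0.019 with DMSO (SD, n = 3). In creER the share was 0.813% ± 0.048 with β-estradiol and 0.891% ± 0.058 with DMSO. Of 11 histone genes, hhf2 for histone H4 was called higher (0.78 ± 0.10), as were 1.31% of all genes tested, and the list median was 0.41.

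Ribosomal protein genes had negative terms in nearly all cases. Of 140 tested genes 138 had a negative interaction, compared with 48.1% of all genes tested, and the list median was -0.58. By the rule used here, 5 of them, rpl1603, rpl3002, rps403, rpl702 and rpl1002, were called with edgeR, all lower (1.11% of all genes tested were called lower). The response of tti2-CKO alone was called lower for 74 of the 140 (5.62% of all genes), and that of creER alone for none. The count of called genes depended on the setting. DESeq2 called 40 (275 over all genes) and one fit of all 36 libraries 53 (322 over all genes). A replicate block within each strain gave 12 (251 over all genes). Without creER DMSO replicate 3, 41 ribosomal protein genes were called (154 over all genes). Over the other 11 single-library exclusions between 2 and 9 were called (60 to 147 over all genes). The median kept its sign, between -0.74 and -0.51, in each of these fits.

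As a share of all counts, ribosomal protein genes made up 13.14%, 12.91% and 13.97% in induced tti2-CKO cells, against 19.12%, 20.17% and 17.51% with DMSO. In creER the shares were 19.71%, 19.22% and 20.1% with β-estradiol and 18.45%, 18.56% and 21.81% with DMSO. The induced tti2-CKO libraries were below all 9 others, and creER DMSO replicate 3 had the highest share.

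rpl1603 had the most negative term of the 140 ribosomal protein genes. It encodes uL13, as do rpl1601 and rpl1602, and fell to 22.3, 23.8 and 28.3 CPM in induced tti2-CKO cells, against 156, 148 and 149 CPM with DMSO. In creER it had 146, 134 and 114 CPM with β-estradiol and 170, 162 and 176 CPM with DMSO (interaction -2.24 ± 0.15, adjusted p = 1.6e-06, edgeR). Its paralogs had interactions of -0.75 ± 0.25 (rpl1601, adjusted p = 0.083) and -0.83 ± 0.27 (rpl1602, adjusted p = 0.0761), neither called. rpl3002, for eL30, stood at -1.12 ± 0.17 (adjusted p = 0.0024), and its paralog rpl3001 at -0.41 ± 0.17 (adjusted p = 0.148). No 50-base window of rpl1603 or rpl3002 occurs again in the genome, whereas 41.3% of those of rpl1002 do. rpl1603 and rpl3002 kept their calls in each of the 12 single-library exclusions, and rpl702, rps403 and rpl1002 in 5, 2 and 2.

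The sequence upstream of rpl1603 is shown because it carries the HomolD box, a promoter element of fission yeast ribosomal protein genes, written in capitals. It covers the 150 bases that end 30 bases before the annotated start (chrII:3443074-3443223, + strand, ASM294v3), 5′ to 3′.
rpl1603: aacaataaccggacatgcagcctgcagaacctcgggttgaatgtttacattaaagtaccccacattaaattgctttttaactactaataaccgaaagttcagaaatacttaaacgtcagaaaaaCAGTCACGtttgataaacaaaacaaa
The box CAGTCACG begins 56 bases before the annotated start. On either strand, this exact form was found in the 300 bases upstream of 31 of 140 ribosomal protein genes (22.1%), compared with 64 of 4944 tested genes (1.3%), a motif added after the lists had been examined.

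The list of ribosome biogenesis genes had a median of -0.23 over 69 tested genes, with rpa43, for a subunit of RNA polymerase I, called (-0.67 ± 0.12, adjusted p = 0.00601, held in 6 of 12 single-library exclusions). This 1 call among 69 genes was close to the 1.11% of all genes tested that were called lower. rpc53, for a subunit of RNA polymerase III, was called with a positive interaction of 0.80, made of a fall of 0.88 in creER and -0.08 in tti2-CKO.

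**Figure D4:**
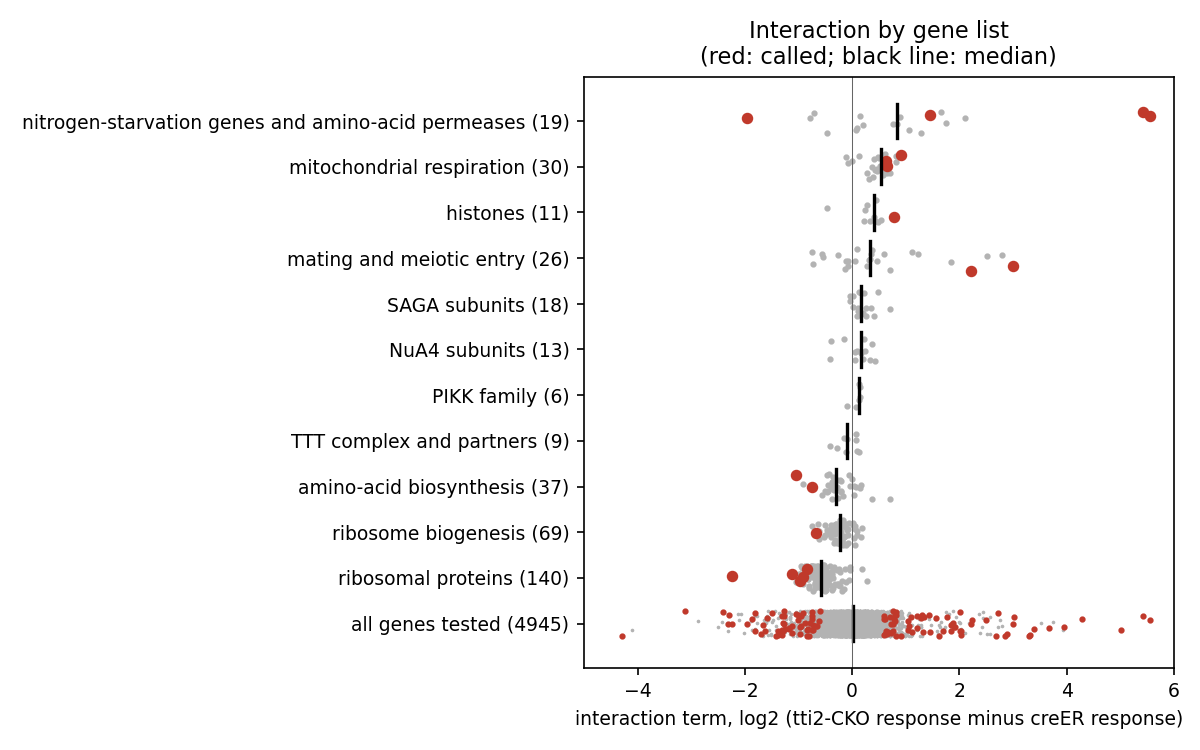
Interaction terms (log2) of the genes of 11 lists and of all 4945 genes tested, 1 point per gene, with called genes in red and the list median as a black line. The ribosomal protein list lies left of 0 with a median of -0.58, and the respiration and nitrogen lists lie to the right with medians of 0.54 and 0.84.

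Several genes of sulfur metabolism were called, in both directions, and were picked after their values were seen. met17, for homocysteine synthase, fell to 75.6, 62.6 and 69.5 CPM in induced tti2-CKO cells, against 200, 188 and 160 CPM with DMSO. Its creER values were 132, 141 and 154 CPM with β-estradiol and 145, 133 and 181 CPM with DMSO (interaction -1.30 ± 0.17, adjusted p = 0.000886, edgeR). met16 and met14, which act in sulfate reduction, were called at -1.05 ± 0.15 and -0.74 ± 0.12, the second lost without β-estradiol-treated tti2-CKO replicate 2 or DMSO-treated tti2-CKO replicate 1 (adjusted p up to 0.0109). Called higher were cbl1 for cystathionine beta-lyase (1.21), SPAC23A1.14c for a cystathionine gamma-synthase-like protein (1.05), tum1 for a thiosulfate sulfurtransferase (0.70) and the serine acetyltransferase gene SPAC1039.08 (2.02). SPAC23A1.14c kept its call in each of the 12 single-library exclusions and SPAC1039.08 in 6. The calls of cbl1 and tum1 each held in only 3 of 12 (adjusted p up to 0.0209 and 0.0252). met14 and met16 were the 2 called among 37 tested genes of the amino-acid biosynthesis list, which had a median of -0.30 and 7 genes above 0. Over all genes tested, 1.11% were called lower.

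mmd1, for deoxyhypusine hydroxylase, an enzyme that modifies the translation factor eIF5A, fell to 173, 121 and 122 CPM in induced tti2-CKO cells, against 491, 476 and 423 CPM with DMSO. creER stayed at 547, 343 and 433 CPM with β-estradiol and 481, 364 and 410 CPM with DMSO (interaction -1.82 ± 0.25, adjusted p = 0.00105, edgeR). gst2, for a glutathione S-transferase, had 51.6, 52.8 and 54.0 CPM in induced tti2-CKO cells, against 181, 139 and 197 CPM with DMSO. The interaction of gst2 was -1.81 ± 0.20 (adjusted p = 0.000139), with 175 to 220 CPM in creER with β-estradiol and 163 to 213 CPM with DMSO. In both genes the induced tti2-CKO libraries lay below all others.

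gpa2, for the G protein α subunit of glucose sensing, had 35.5, 41.5 and 36.1 CPM in induced tti2-CKO cells, against 102, 96.7 and 111 CPM with DMSO (interaction -1.70 ± 0.17, adjusted p = 0.000109, edgeR). SPAC8E11.10, for a sorbose reductase, had 144, 139 and 188 CPM in induced tti2-CKO cells, against 457, 430 and 393 CPM with DMSO (interaction -1.62 ± 0.17, adjusted p = 0.000139). The creER response of neither was called, at 0.25 ± 0.12 (adjusted p = 0.329) and 0.18 ± 0.12 (adjusted p = 0.522). Further members with large negative terms included SPCC569.05c for a spermidine family transporter (-1.58 ± 0.27) and SPCC576.17c for a vitamin B6 transporter (-1.50 ± 0.28). These kept their calls in 6 and 4 of 12 single-library exclusions (adjusted p up to 0.0174 and 0.0241). At means of only 8.25 and 9.38 CPM, the uncharacterized gene SPCC594.03 stood at -3.12 ± 0.31 and mug150 at -1.66 ± 0.31. SPCC594.03 kept its call in each of the 12 single-library exclusions and mug150 in 3. SPCC569.03, an uncharacterized gene, stood at -1.87 ± 0.23, and 21.3% of its 50-base windows occur again in the genome.

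Genes of the L-asparaginase family were lower too, but much of their sequence is not unique. Reads below an alignment quality of 10 were not counted, and how reads from the repeated stretches were placed was not tested. SPBPB21E7.09, SPAC977.12 and SPBPB8B6.05c had interactions of -2.32 ± 0.46, -1.38 and -1.28, and 58.3%, 73.3% and 73.3% of their 50-base windows occur again in the genome. SPBPB21E7.09 was at 3.02, 2.02 and 4.59 CPM in induced tti2-CKO cells, against 33.7, 16.8 and 28.5 CPM with DMSO. Its call held in 3 of 12 single-library exclusions (adjusted p up to 0.0377). Those of SPAC977.12 and SPBPB8B6.05c held in 12 and 8 of them (adjusted p up to 0.000756 and 0.0149). In all, 10 of the 120 genes had more than 5% of their windows occurring again in the genome.

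**Figure D5:**
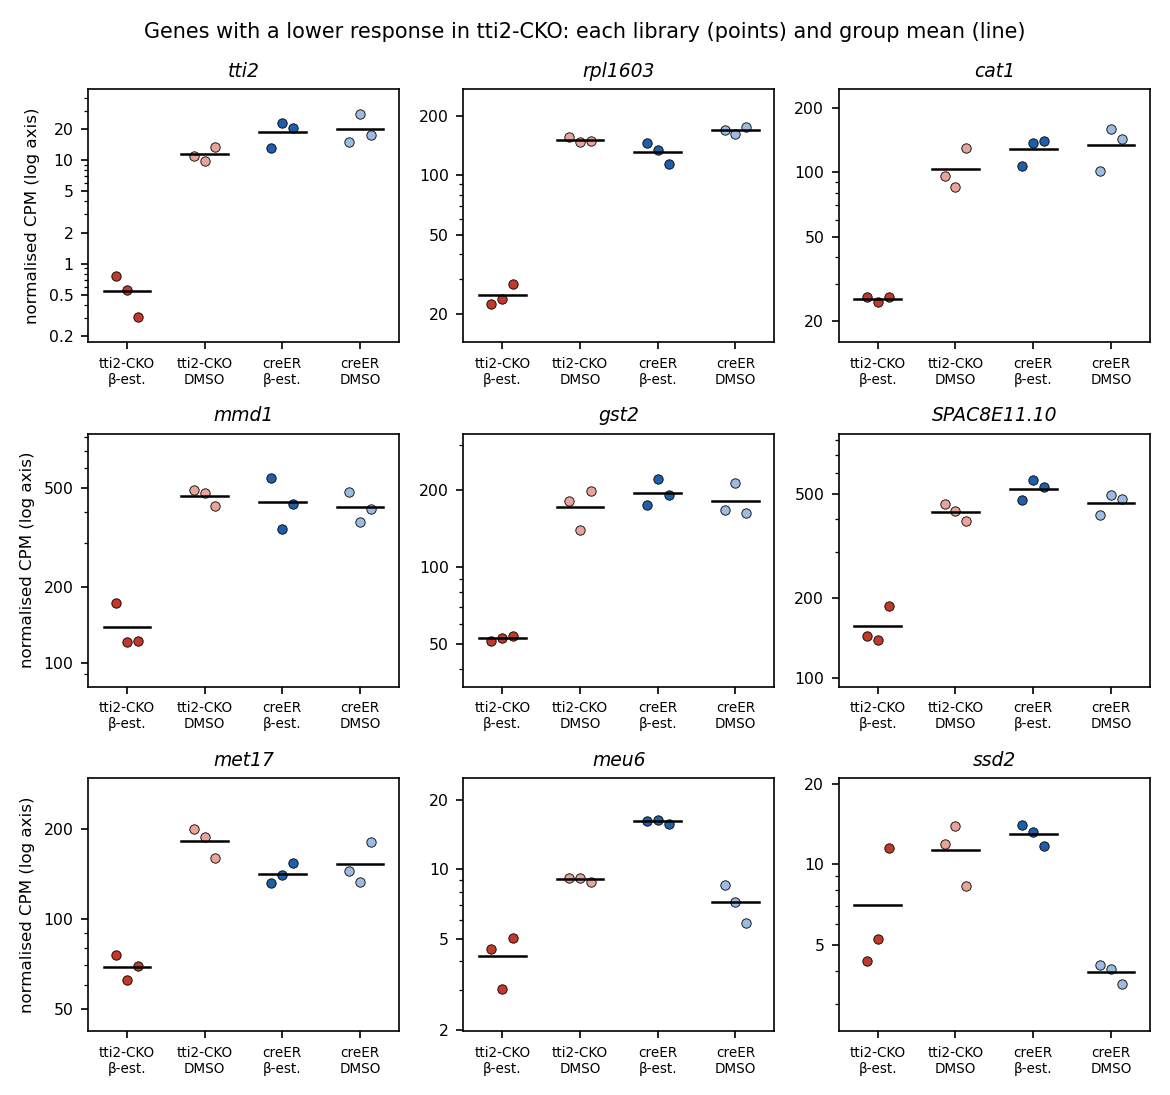
CPM of 9 genes with a lower response in tti2-CKO in each library (points, 3 per group, on a log axis) and the group mean (line). For rpl1603, cat1, mmd1, gst2, SPAC8E11.10 and met17 the 3 induced tti2-CKO libraries lie below the 9 others, whereas meu6 and ssd2 also rise with β-estradiol in creER.

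In 9 of the 120 genes the tti2-CKO response did not exceed that of creER in the direction of the interaction. They were pho842 (called in 2 of 12 single-library exclusions), mfs1 and rpc53 with positive terms, and ssd2, meu6, opi10, SPAPB24D3.08c, gta2 and man1 with negative terms. meu6 fell to 4.53, 3.02 and 5.05 CPM in induced tti2-CKO cells, against 9.14, 9.16 and 8.84 CPM with DMSO, and rose to 16.3, 16.4 and 15.8 CPM in creER with β-estradiol, against 8.56, 7.20 and 5.84 CPM with DMSO. ssd2, for succinate-semialdehyde dehydrogenase, had 4.35, 5.26 and 11.5 CPM in induced tti2-CKO cells, against 11.9, 13.9 and 8.26 CPM with DMSO. In creER ssd2 was at 14, 13.2 and 11.7 CPM with β-estradiol and 4.20, 4.07 and 3.57 CPM with DMSO, so its interaction of -2.4 included a creER rise of 1.71. The call of ssd2 held in 3 of 12 single-library exclusions and was lost without both creER replicate 1 cultures (adjusted p = 0.0152, edgeR).

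A few genes rose in both strains but more in tti2-CKO. tsp0, for a tspO-like protein, rose by 2.73 in tti2-CKO and by 1.65 in creER on the log2 scale (interaction 1.07 ± 0.20, adjusted p = 0.00667, edgeR). fmd3, for a formaldehyde dehydrogenase, had 79.3, 117 and 172 CPM in induced tti2-CKO cells, against 14.8, 14.5 and 12 CPM with DMSO. In creER fmd3 had 22.7, 30 and 25.6 CPM with β-estradiol and 10.8, 11 and 10.1 CPM with DMSO (interaction 1.85 ± 0.35). The calls of tsp0 and fmd3 held in 3 and 2 of 12 single-library exclusions (adjusted p up to 0.0227 and 0.021).

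Glucose-related genes were called in both directions: gal7, for galactose-1-phosphate uridylyltransferase, at 1.92 ± 0.32, the hexose transporter gene ght2 at -0.74 ± 0.12 and the alcohol dehydrogenase gene adh4 at -1.27 ± 0.21. They were 1 higher and 2 lower of 20 tested genes of that list (1.31% and 1.11% of all genes tested). gal7 kept its call in 6 of 12 single-library exclusions (adjusted p up to 0.0143). ght2 lost its call without β-estradiol-treated creER replicate 3 (adjusted p up to 0.0105), and adh4 without β-estradiol-treated tti2-CKO replicate 2 or DMSO-treated tti2-CKO replicate 1 (adjusted p up to 0.0149). No gene was called in the lists of heat-shock proteins (22 tested), core stress genes (26), iron and copper homeostasis (21), Sre1 sterol genes (18), thiamine-repressed genes (10), MBF targets (19) or cell wall genes (30) by edgeR (2.43% of all genes tested were). DESeq2 called 2, 5, 0, 1, 1, 0 and 3 of them in that order (275 over all genes). Without both creER replicate 1 cultures edgeR called 1, 0, 1, 4, 0, 0 and 2 (140 over all genes). The Sre1 list had a median of -0.39, with 4 of its 18 genes above 0. Of genes singled out in the study, SPCC1884.01 (-1.61 ± 0.43, adjusted p = 0.038), pho84 (0.95 ± 0.30, adjusted p = 0.0686) and ssa2 (-0.20 ± 0.17, adjusted p = 0.512) had no called interaction by edgeR. DESeq2 called that of SPCC1884.01 (adjusted p = 0.00318) but neither pho84 nor ssa2. The tti2-CKO response alone was called for SPCC1884.01 (-2.14, adjusted p = 0.000401, edgeR) and pho84 (1.14, adjusted p = 0.0016), not for ssa2 (0.05). The study singled out pho84 and ssa2 for coactivator binding at their promoters, and SPCC1884.01 for its RNA.

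The members were then read in mutants whose libraries the interaction did not use. Deletion of tra1 (tra1Δ) or spt20 (spt20Δ), both of which encode SAGA subunits, was compared with wild type (3 libraries each, the wild type shared by both comparisons), where 121 of 4899 genes (2.47%) and 631 of 4920 genes (12.8%) were called. Of the 65 higher genes, 11 rose in tra1Δ (0.816% of all tested genes did) and none fell. Of the 55 lower genes, 16 fell in tra1Δ (1.65% of all tested genes) and 1 rose. In spt20Δ, 18 higher genes rose and 4 fell (7.09% and 5.73% of all tested genes), and 18 lower genes fell and 3 rose. The tra1Δ count of 11 dropped to 6 without tra1Δ replicate 2 or 3 and to 7 without wild-type replicate 1, and that of 16 was between 11 and 18.

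gst2 fell by 2.1 on the log2 scale in tra1Δ (adjusted p = 0.000295, edgeR), and mmd1, met17 and cat1 fell by 1.18, 1.26 and 0.93. isp5 rose by 1.86 (adjusted p = 0.00409), gal7 by 1.80, ste11 by 1.13 and mfm2 by 1.05. dip5, alr2 and SPAC922.03 were not called in tra1Δ, at -0.18, 0.65 and -0.35, and dip5 alone of these was called in spt20Δ, at 2.03 (adjusted p = 0.000211). SPCC569.03, lower in induced tti2-CKO cells, rose by 1.82 in tra1Δ.

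In the corresponding comparison of tra2-CKO with creER, which uses the same creER libraries, 19 of 4946 genes (0.384%; 0.243% higher and 0.142% lower) were called. With single libraries left out, between 1 and 12 genes were called, so this count depended on each library. Values of single members, chosen after they were seen, stand side by side. gst2 had an interaction of 1.34 in tra2-CKO (adjusted p = 0.00856, edgeR), against -1.81 in tti2-CKO, pbi2 had 1.51 (adjusted p = 0.00325), against 1.70, and SPCC569.03 had -1.46 (adjusted p = 0.00977), against -1.87. For isp5, dip5 and SPAC922.03 the tra2-CKO interactions were -0.19, -0.31 and -0.45, none called.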

How the data were processed

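Gene counts for 36 libraries were deposited by the authors as whole reads per gene, not normalised. Per the labels and methods, polyadenylated RNA was sequenced as stranded single-end reads, aligned with HISAT2 2.1.0 and counted with HTSeq 0.9.1 (reverse strand, minimum alignment quality 10); the genome build is not given in the sources used here. Names came from RefSeq ASM294v3 (5114 of 5129 identifiers matched). Those without a match kept their identifiers. Genes passed edgeR's filterByExpr (minimum count 10). One edgeR 4.0.16 quasi-likelihood model (R 4.3.3, TMM scaling, 1 term per group) over the 12 libraries gave the interaction, both responses and the DMSO difference, and tra2-CKO, tra1Δ and spt20Δ had fits of their own. The method was tested on simulated data with independent libraries, which did not include cultures that deviate together or a library that stands apart. Replicates with the same number deviated together in creER (r = 0.746, 0.647 and 0.386) but not in tti2-CKO (0.242, -0.141 and -0.351), so no block was used. For the creER response alone, a block by replicate number gave 105 called genes in place of 95. Whether the numbers mark paired cultures is not stated in the labels. Alternatives were DESeq2 1.42.0, RLE scaling, other count filters, a replicate block, all 36 libraries together, unadjusted p-values and leaving out single libraries. Named genes were tti2, PIKK and TTT genes, genes singled out by the study, the 12 largest called terms in each direction (mean of at least 10 CPM, treated and DMSO-treated tti2-CKO not overlapping) and called list members. Other genes were named after their values were seen. Replicates are stated to be independent biological samples. The members and lists were chosen with earlier results of these data known.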

Additional observations from a re-analysis of the deposited data

Results flagged for a closer look

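By the interaction term itself, 120 genes responded differently in tti2-CKO and in creER (edgeR, adjusted p of at most 0.01 and at least 1.5-fold). The terms of the named ones are given here on the log2 scale, tti2-CKO minus creER, with 3 libraries in each of the 4 groups. The targeted gene tti2 stood at -4.29. Amino-acid transporter genes were isp5 (5.55), dip5 (5.43), SPAC1039.01 (3.02), SPBC359.01 (2.89), agp3 (1.46) and cat1 (-1.96). The other large positive terms were those of alr2 (5.01), SPAC11D3.03c (4.28), SPAC922.03 (3.96), SPCC777.03c (3.67), mmf2 (3.40), SPAC27F1.05c (3.32) and SPAC1039.02 (3.30).

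Mating genes were mfm2 (3.01) and ste11 (2.22), respiratory genes cox5 (0.91), cox12 (0.66) and atp3 (0.63), and the histone gene hhf2 stood at 0.78. The phosphate transporter gene pho842 stood at 1.89, where creER fell by 1.30 and the tti2-CKO change of 0.59 was smaller. Sugar-related genes were gal7 (1.92), ght2 (-0.74) and adh4 (-1.27). Ribosomal genes were rpl1603 (-2.24), rpl3002 (-1.12), rpl1002 (-0.97), rps403 (-0.91), rpl702 (-0.84) and rpa43 (-0.67). Sulfur assimilation genes were met16 (-1.05) and met14 (-0.74). The remaining lower genes were SPBPB21E7.09 (-2.32), SPCC569.03 (-1.87), mmd1 (-1.82), gst2 (-1.81), gpa2 (-1.70), SPAC8E11.10 (-1.62), SPCC569.05c (-1.58), SPCC576.17c (-1.50) and SPAC977.12 (-1.38). With 3 libraries a group, no outlier test was run, but single libraries were left out in turn. Several of these calls, among them those of mfm2, SPAC1039.01 and rpl1002, did not hold in all such fits.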

How the results depend on the processing

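No called interaction term of a named gene changed sign under the alternatives run, whereas terms near 0 did (tor2 lay between -0.03 and 0.13 without single libraries). RLE scaling gave 119 called interactions (117 of the 120), no count filter 119 and a minimum of 10 counts in every library 119 (118 of the 120). DESeq2 gave 275 (116 higher, 159 lower; 118 of the 120), all 36 libraries in one fit 322, and unadjusted p-values 382. The same 3 settings gave 38, 13 and 122 for the DMSO difference and 105, 78 and 180 for tra2-CKO. DESeq2 and unadjusted p-values gave 184 and 217 for tra1Δ, and unadjusted p-values 176 for the creER response. Without both creER replicate 1 cultures, chosen after the data were seen, the DMSO difference held 310 genes. The replicate block gave 163 interactions (115 of the 120), 251 when set within each strain, 19 for the DMSO difference and 83 for tra2-CKO. Same-numbered cultures deviated together in creER but not in tti2-CKO, and no label says what the replicate numbers stand for. Leaving out single libraries gave 60 to 154 interactions, 416 to 613 genes for the tti2-CKO response, 44 to 101 for creER, 0 to 211 for the DMSO difference, 1 to 12 for tra2-CKO, 67 to 183 for tra1Δ and 403 to 719 for spt20Δ. The causes of these shifts were not tested. Depth limited genes of low level: 6 of the 120 averaged under 10 CPM, and tti2 itself rested on 2 to 5 counts in induced tti2-CKO cells.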
